A study of Mus musculus with 6 samples.

Results

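The tight junction genes described here are 5 claudins (Cldn1, Cldn3, Cldn4, Cldn7 and Cldn12), 3 other membrane proteins of the junction (Ocln, Marveld2 and F11r) and 2 cytoplasmic plaque proteins (Tjp1 and Cgn). They were chosen by gene symbol, with earlier results of these data known, after the identifiers in the deposited table had been matched to the mouse annotation. All 10 were found among the 26094 genes listed, and all 10 were among the 11842 genes tested. RNA was sequenced from 4T1, a mouse mammary carcinoma line studied as a counterpart of triple-negative human tumours. In the Vector group (3 libraries) the cells had been infected with lentivirus carrying the empty PLVX-ires-neo plasmid, and in the Limch1_OE group (3 libraries) the plasmid carried mouse Limch1, which encodes an actin-binding LIM-domain protein that activates non-muscle myosin. Virus came from HEK293T packaging cells, and both groups were selected as stable lines with antibiotic from 48 h after infection. The promoter driving the transgene, and whether a line was 1 clone or a pool, were not found in the labels. Neither is it said that the libraries within a group are separate cultures, so the p-values below measure only the spread between libraries, which may be technical.

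Tight junctions seal the space between neighbouring epithelial cells close to the apical surface. Claudins are small proteins that cross the membrane several times and pair across the gap between cells, where some make the seal tighter and others form pores for selected ions. Occludin and tricellulin (the product of Marveld2) belong to a related family of membrane proteins, JAM-A (the product of F11r) is an immunoglobulin-like adhesion molecule, and ZO-1 (Tjp1) and cingulin (Cgn) link the membrane proteins to actin and myosin. In luminal mammary epithelium Cldn3, Cldn4 and Cldn7 are among the typical claudins, and tumours with low claudin levels form a recognised subtype of breast cancer.

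Levels below are FPKM, fragments normalised for transcript length and library size, summed over the listed transcripts of a gene. Since FPKM is per length, levels can be compared between genes. Limch1 itself, the check of the labels, stood at 0.25, 0.15 and 0.10 FPKM in the 3 Vector libraries. In the 3 Limch1_OE libraries it stood at 23.96, 23.31 and 25.69 FPKM. The log2 fold change was 4.44 on log2(FPKM + 1), a scale that understates changes from such low levels. Limch1 met the minimum of 1 FPKM for testing only through the Limch1_OE libraries, so its levels are the check and its call is no result. FPKM sums per library ran from 414837 to 416242 in Vector and from 421767 to 425064 in Limch1_OE, and no depth is known for these libraries. On the first principal component of all tested genes (74.9% of the variance) the groups separated. On the second (8.98%) Limch1_OE replicate 1 and replicate 3 lay farthest apart. Of 8 epithelial markers chosen, Krt5 was not listed, and Epcam, Cdh1, Krt8, Krt18, Krt7, Krt19 and Krt14 all reached 1 FPKM in both groups. The summed level of these 7 was 1490 to 1562 FPKM in Vector and 1469 to 1624 FPKM in Limch1_OE. Epcam (log2 fold change -0.44) and Cdh1 (-0.18) were lower, Krt7 (0.37) was higher and 4 did not pass the test (limma, adjusted p below 0.05). Of all tested genes 14.4% were lower and 20.2% higher.

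The 4 claudin promoters below show the sequence around the start of the genes with the largest decreases (Cldn7, Cldn1 and Cldn3) and of Cldn4, which lies beside Cldn3. Each is the RefSeq window on GRCm38.p6 from 250 bases before to 50 bases after the annotated start, nearest to the start of the gene's most abundant transcript, 5' to 3' on the gene's strand. Capitals mark CACCTG, or CAGGTG where it lies on the other strand, the E-box letters that Snail and Zeb repressors are known to bind. Cldn7 lies on chr11:69965171-69965470, plus strand, Cldn3 on chr5:134985964-134986263, plus strand, Cldn4 on chr5:134946885-134947184, minus strand, and Cldn1 on chr16:26371790-26372089, minus strand.
Cldn7: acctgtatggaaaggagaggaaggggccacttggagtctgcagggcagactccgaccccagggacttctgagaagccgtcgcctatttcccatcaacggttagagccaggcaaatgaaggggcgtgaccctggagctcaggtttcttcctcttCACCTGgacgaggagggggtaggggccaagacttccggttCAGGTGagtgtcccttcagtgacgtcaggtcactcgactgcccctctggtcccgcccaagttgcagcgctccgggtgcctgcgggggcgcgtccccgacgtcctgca
Cldn3: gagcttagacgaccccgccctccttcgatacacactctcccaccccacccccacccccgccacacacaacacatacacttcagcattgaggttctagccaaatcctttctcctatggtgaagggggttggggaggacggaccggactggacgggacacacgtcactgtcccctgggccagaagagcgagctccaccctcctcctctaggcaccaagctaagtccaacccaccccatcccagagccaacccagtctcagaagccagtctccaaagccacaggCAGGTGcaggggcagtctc
Cldn4: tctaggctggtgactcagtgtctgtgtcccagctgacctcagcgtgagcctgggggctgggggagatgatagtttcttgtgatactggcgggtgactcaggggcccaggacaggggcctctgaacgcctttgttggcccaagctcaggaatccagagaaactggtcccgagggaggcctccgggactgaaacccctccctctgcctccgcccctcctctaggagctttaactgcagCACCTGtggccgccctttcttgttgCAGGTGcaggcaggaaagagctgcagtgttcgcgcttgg
Cldn1: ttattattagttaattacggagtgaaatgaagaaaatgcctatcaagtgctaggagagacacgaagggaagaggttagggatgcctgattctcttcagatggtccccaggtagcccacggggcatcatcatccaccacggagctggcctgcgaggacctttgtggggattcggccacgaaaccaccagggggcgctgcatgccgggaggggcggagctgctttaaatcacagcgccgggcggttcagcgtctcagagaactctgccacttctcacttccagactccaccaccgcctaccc
The Cldn7 window held 2 matches, starting 97 and 57 bases before the start site. The Cldn4 window also held 2, at 14 bases before and 11 bases after the start, and the Cldn3 window held 1, at 31 bases after it. The Cldn1 window held none. Over the 10 tight junction genes, 6 had at least 1 match (Cldn3, Cldn4, Cldn7, Ocln, F11r and Marveld2), while 20.2% of the 32851 mouse promoter windows of the same length did. Of the genes with a match, Cldn7, Cldn3 and Marveld2 fell, and Cldn4, Ocln and F11r did not pass the test. Of those without one, Cldn1, Cldn12 and Cgn fell, and Tjp1 did not pass the test. The grainyhead site AACCGGTT, searched on both strands, was in 0 of the 10 windows and in 0.146% of all windows. The interferon-response-like letters GAAANNGAA, also searched on both strands, were in 0 of the 10 and in 8.56% of all windows. These matches are letters in a window and no measure of binding.

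The question for these genes was which parts of the tight junction differ when Limch1 is expressed. Of the 10 genes, 6 were lower in Limch1_OE (Cldn7, Cldn1, Cldn3, Cldn12, Marveld2 and Cgn), 0 were higher and 4 (Cldn4, F11r, Ocln and Tjp1) did not pass the test (limma on log2(FPKM + 1), adjusted p below 0.05 over all tested genes). At an unadjusted p below 0.05, 1 gene was higher, Tjp1 (unadjusted p = 0.0438, limma). By the same rule 34.6% of all tested genes differed, 14.4% lower (1706 genes) and 20.2% higher (2388 genes). With the libraries rescaled by the trimmed mean of M values the split over all genes was 1900 higher against 2042 lower, and the count over these 10 genes was again 6 lower and 0 higher. The libraries of the groups did not overlap for 6 of the 10 in the lower direction, against 20.5% of all tested genes, and for 1 (Tjp1) in the higher direction, against 28.6%. The median log2 fold change of the 10 genes was -0.25, beside 0.04 for all tested genes. Because the 10 genes were chosen with earlier results of these data known, these contrasts are a description and no independent test. In bulk RNA, fewer cells of a type and less RNA per cell cannot be told apart.

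**Figure D1:**
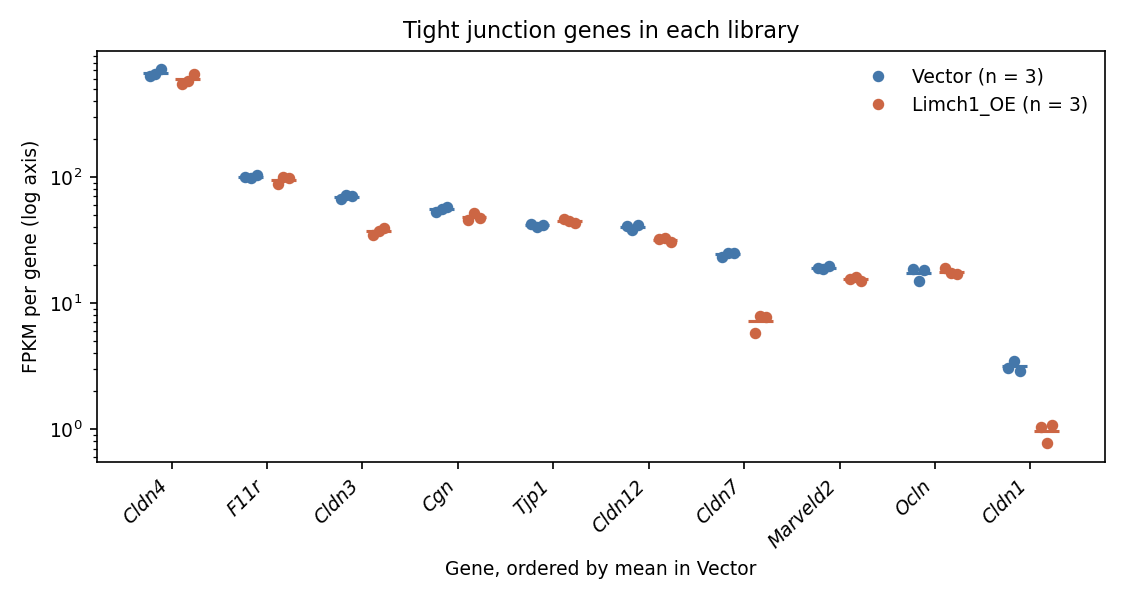
FPKM per gene (log axis) of the 10 tight junction genes in each of the 6 libraries, with a bar at each group mean. Cldn7, Cldn1 and Cldn3 show the widest gaps between Vector and Limch1_OE, and Cldn4 is the highest gene in both groups.

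Cldn7, a claudin found along the lateral membrane as well as in the junction, had the largest change. Its level was 23.23, 24.88 and 24.80 FPKM in the Vector libraries and 5.82, 7.91 and 7.69 FPKM in the Limch1_OE libraries. Every Limch1_OE library lay far below every Vector library, and Limch1_OE replicate 1 was the lowest. The mean went from 24.3 ± 0.930 to 7.14 ± 1.15 FPKM (SD, n = 3 each), 29.4% of the Vector mean. The log2 fold change was -1.65 (SE 0.10, adjusted p = 4.77e-06, limma). Cldn7-201 carried 98.4% of the gene's FPKM, so the fall was that of 1 transcript.

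Cldn1, a claudin that tightens the seal of many epithelia, was the lowest of the 10 genes in both groups. It stood at 3.05, 3.49 and 2.86 FPKM in Vector and at 1.03, 0.77 and 1.08 FPKM in Limch1_OE. The groups were well apart, and Limch1_OE replicate 2 went under the 1 FPKM used as the minimum for testing. The mean was 3.13 ± 0.323 FPKM in Vector and 0.960 ± 0.166 FPKM in Limch1_OE (SD, n = 3 each), a Vector to Limch1_OE ratio of 3.26. That ratio is close to the 3.40 of Cldn7. The log2 fold change on log2(FPKM + 1) was -1.08 (SE 0.11, adjusted p = 1.33e-04, limma), a scale that understates changes at such low levels. With a pseudocount of 0.1 it was -1.62.

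Cldn3, a sealing claudin of luminal and glandular epithelia, was the second most abundant claudin in both groups. Vector libraries had 66.39, 71.31 and 70.32 FPKM, and Limch1_OE libraries had 34.84, 37.39 and 39.52 FPKM. The 2 groups were each narrow and did not overlap. The mean went from 69.3 ± 2.60 to 37.3 ± 2.34 FPKM (SD, n = 3 each), 53.7% of the Vector mean, with a log2 fold change of -0.88 (SE 0.06, adjusted p = 8.29e-06, limma).

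Cldn4, another claudin of luminal epithelia and the known partner of Cldn3 on the same stretch of chromosome 5, was the most abundant of the 10 genes by a wide margin. Its values were 627.6, 659.3 and 710.3 FPKM in Vector and 545.8, 574.7 and 654.7 FPKM in Limch1_OE. The groups overlapped, since Limch1_OE replicate 3 was above Vector replicate 1. The mean was 666 ± 41.7 FPKM in Vector and 592 ± 56.4 FPKM in Limch1_OE (SD, n = 3 each). The log2 fold change was -0.17 (95% confidence interval -0.35 to 0.00) and did not pass the test (adjusted p = 0.117, limma). Without Limch1_OE replicate 3 it was -0.25 and passed (adjusted p = 0.0290, limma), and with quantile normalization it was -0.24 and passed (adjusted p = 0.0368, limma).

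Cldn12, an unusual claudin that lacks the usual binding end for plaque proteins such as ZO-1, fell by a smaller amount. It measured 40.71, 37.87 and 41.15 FPKM in Vector and 31.86, 32.86 and 30.56 FPKM in Limch1_OE. No Limch1_OE library reached the lowest Vector library. The mean went from 39.9 ± 1.78 to 31.8 ± 1.15 FPKM (SD, n = 3 each), a log2 fold change of -0.32 (SE 0.05, adjusted p = 0.00235, limma). Its main transcript, Cldn12-201 (63.5% of the gene), went from 25.71, 25.39 and 24.91 FPKM to 18.88, 22.12 and 19.44 FPKM. The next, Cldn12-202 (28.9%), went from 10.75, 11.06 and 11.07 FPKM to 10.16, 9.18 and 9.99 FPKM. Both were lower in every Limch1_OE library.

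**Figure D2:**
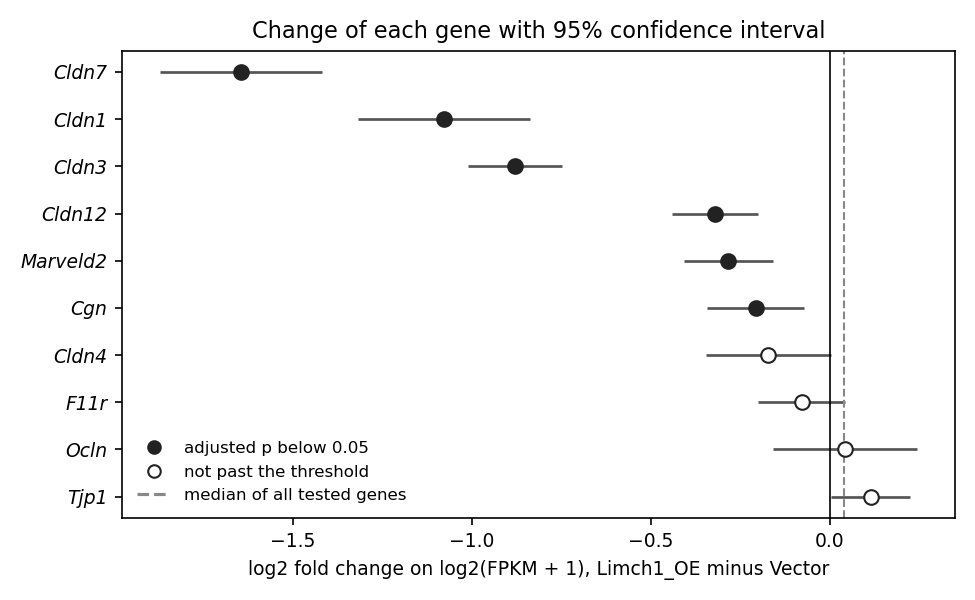
Log2 fold change (log2(FPKM + 1), Limch1_OE minus Vector) of each of the 10 genes with its 95% confidence interval. Filled points passed the adjusted p threshold of 0.05, open points did not, and the dashed line is the median of all tested genes at 0.04; Cldn7 lies farthest left at -1.65 and Tjp1 farthest right at 0.11.

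The change of Cldn7 was larger in value than those of the 4 other claudins chosen. On the log2(FPKM + 1) scale, the difference between Cldn7 and Cldn4 within a library was lower in Limch1_OE by -1.47, that between Cldn7 and Cldn12 by -1.33, that between Cldn7 and Cldn3 by -0.77 and that between Cldn7 and Cldn1 by -0.57. In all 4 pairs the 3 Limch1_OE libraries lay below the 3 Vector libraries. The exact two-sided permutation p was 0.1 for each pair, the smallest that 3 libraries against 3 allow. After Benjamini-Hochberg adjustment over the 4 it was 0.1. The pairs were set with earlier results of these data known, and Cldn7 had the largest change. A lower value in Limch1_OE was likely from that choice, so these p-values are no independent support. The value for the pair with Cldn1 depended on the pseudocount: with 0.1 in place of 1 it was -0.15, the groups overlapped and the exact permutation p was 0.6.

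The claudins were also read as a family. The table lists 15 claudin genes, of which 8 stayed below 1 FPKM in every library and 7 were tested, the 5 above with Cldn9 and Cldn23. Neither Cldn9 (log2 fold change 0.15, adjusted p = 0.217, limma) nor Cldn23 (log2 fold change -0.06, adjusted p = 0.740, limma) passed the test. Summed over all claudins the level was 770.9, 806.1 and 859.1 FPKM in Vector and 628.5, 663.5 and 744.6 FPKM in Limch1_OE. Most of that sum is Cldn4. Without Cldn4 the sum was 143.3, 146.8 and 148.8 FPKM in Vector and 82.7, 88.8 and 90.0 FPKM in Limch1_OE, so the groups stood far apart.

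Cldn4 made up 82.0% ± 0.653 of the claudin sum in Vector and 87.1% ± 0.699 in Limch1_OE (SD, n = 3 each). The share of Cldn3 was 8.55% ± 0.335 in Vector and 5.50% ± 0.169 in Limch1_OE. Cldn7 held 3.0% ± 0.101 of the sum in Vector and 1.05% ± 0.134 in Limch1_OE. For Cldn12 the shares were 4.92% ± 0.313 and 4.71% ± 0.527 (SD, n = 3 each), and the libraries overlapped. Shares add up to a fixed total, so the larger share of Cldn4 is not a higher level of it.

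**Figure D3:**
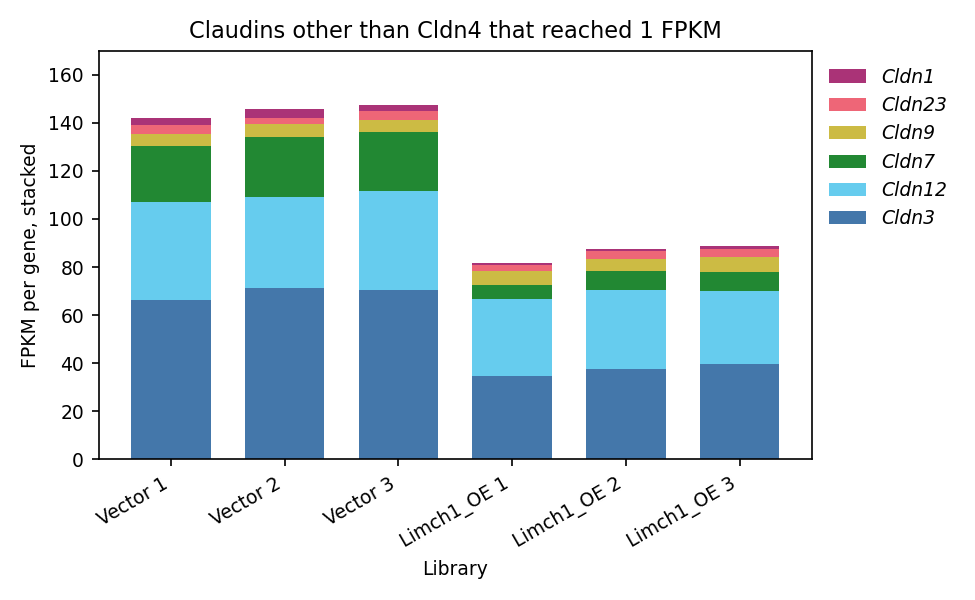
FPKM of the 6 claudins other than Cldn4 that reached 1 FPKM, stacked for each library, from 0. The Limch1_OE stacks are shorter, mainly in the Cldn3 and Cldn7 layers.

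Occludin, encoded by Ocln, is the longest known membrane protein of the tight junction and helps regulate the seal. Ocln had 18.71, 14.79 and 18.29 FPKM in Vector and 18.84, 17.33 and 16.99 FPKM in Limch1_OE. Only Vector replicate 2 was low, and the groups overlapped. The mean was 17.3 ± 2.15 FPKM in Vector and 17.7 ± 0.985 FPKM in Limch1_OE (SD, n = 3 each), a log2 fold change of 0.04 (95% confidence interval -0.16 to 0.24, adjusted p = 0.748, limma). The interval leaves out the value seen for Marveld2, -0.28, but the 95% confidence interval of Marveld2, -0.41 to -0.16, meets it at the edge. The difference between these genes was not tested. How the sum was divided among the transcripts varied between libraries: Ocln-201 ran from 2.85 FPKM (Vector replicate 2) to 10.47 FPKM (Vector replicate 1), within 1 group.

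Marveld2 encodes tricellulin, which seals the corners where 3 cells meet. It stood at 18.79, 18.42 and 19.78 FPKM in Vector and at 15.46, 15.95 and 14.86 FPKM in Limch1_OE. The groups did not overlap and each was narrow. The mean went from 19.0 ± 0.703 to 15.4 ± 0.546 FPKM (SD, n = 3 each), a log2 fold change of -0.28 (SE 0.06, adjusted p = 0.00502, limma). The sum was carried by Marveld2-201, with 6.87, 8.55 and 11.16 FPKM in Vector and 8.74, 11.33 and 6.35 FPKM in Limch1_OE, and by Marveld2-204, with 11.71, 9.62 and 8.57 FPKM in Vector and 6.69, 4.52 and 8.22 FPKM in Limch1_OE. Marveld2-201 overlapped between the groups and Marveld2-204 did not. With only the most abundant transcript of each gene, Marveld2-201 here, the log2 fold change was -0.02 (adjusted p = 0.970, limma).

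F11r encodes JAM-A, an adhesion molecule of the junction that binds its own kind on the next cell. Its levels were 99.99, 98.31 and 102.5 FPKM in Vector and 88.41, 99.32 and 97.26 FPKM in Limch1_OE. Limch1_OE replicate 1 was the low one, and the groups overlapped. The mean was 100.3 ± 2.10 FPKM in Vector and 95 ± 5.80 FPKM in Limch1_OE (SD, n = 3 each). The log2 fold change of -0.08 (95% confidence interval -0.20 to 0.04) did not pass the test (adjusted p = 0.286, limma).

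Tjp1 encodes ZO-1, the scaffold that binds claudins, occludin and JAM-A to actin. It measured 42.39, 40.08 and 41.54 FPKM in Vector and 46.56, 44.47 and 43.40 FPKM in Limch1_OE. All 3 Limch1_OE libraries were above all 3 Vector libraries, by a small margin. The mean was 41.3 ± 1.17 FPKM in Vector and 44.8 ± 1.61 FPKM in Limch1_OE (SD, n = 3 each), a log2 fold change of 0.11 (95% confidence interval 0.00 to 0.22) that did not pass the test (adjusted p = 0.101, limma). With quantile normalization it was 0.15 and passed (adjusted p = 0.0480, limma). The main transcript, Tjp1-202 (69.7% of the gene), overlapped between the groups, and so did Tjp1-201 (25.1%). With only Tjp1-202 the sign turned, to -0.02 (adjusted p = 0.889, limma).

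Cgn encodes cingulin, a plaque protein that binds ZO-1, myosin and regulators of RhoA. Vector libraries had 52.74, 55.84 and 58.12 FPKM and Limch1_OE libraries had 45.39, 51.38 and 47.29 FPKM. The highest Limch1_OE library, replicate 2, came close to the lowest Vector library without reaching it. The mean went from 55.6 ± 2.7 to 48.0 ± 3.06 FPKM (SD, n = 3 each), a log2 fold change of -0.21 (SE 0.06, adjusted p = 0.0270, limma). This call held in only 8 of 17 alternatives, and among those in which it was lost were leaving out Vector replicate 2 (adjusted p = 0.0741), Vector replicate 3 (0.0906), Limch1_OE replicate 1 (0.0660) or Limch1_OE replicate 3 (0.0633), all by limma. With only the most abundant transcript, Cgn-201, the sign turned to 0.08 and did not pass the test (adjusted p = 0.423, limma).

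The transcripts of Cgn differed in their behaviour. Cgn-201 was at 22.99, 25.42 and 22.97 FPKM in Vector and at 26.54, 24.32 and 24.77 FPKM in Limch1_OE, with overlap. Cgn-202 was at 21.97, 22.84 and 31.53 FPKM in Vector and at 17.27, 23.82 and 4.48 FPKM in Limch1_OE. A further transcript listed under Cgn, which is not in GENCODE release M21, was at 6.63, 6.42 and 3.03 FPKM in Vector and at 0.19, 2.08 and 16.88 FPKM in Limch1_OE. In Limch1_OE replicate 3 it was high where Cgn-202 was low, and their sum stayed closer to that of the other libraries than either transcript did. How reads were divided among overlapping transcripts is not given in the labels, and its part in these values was not tested.

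**Figure D4:**
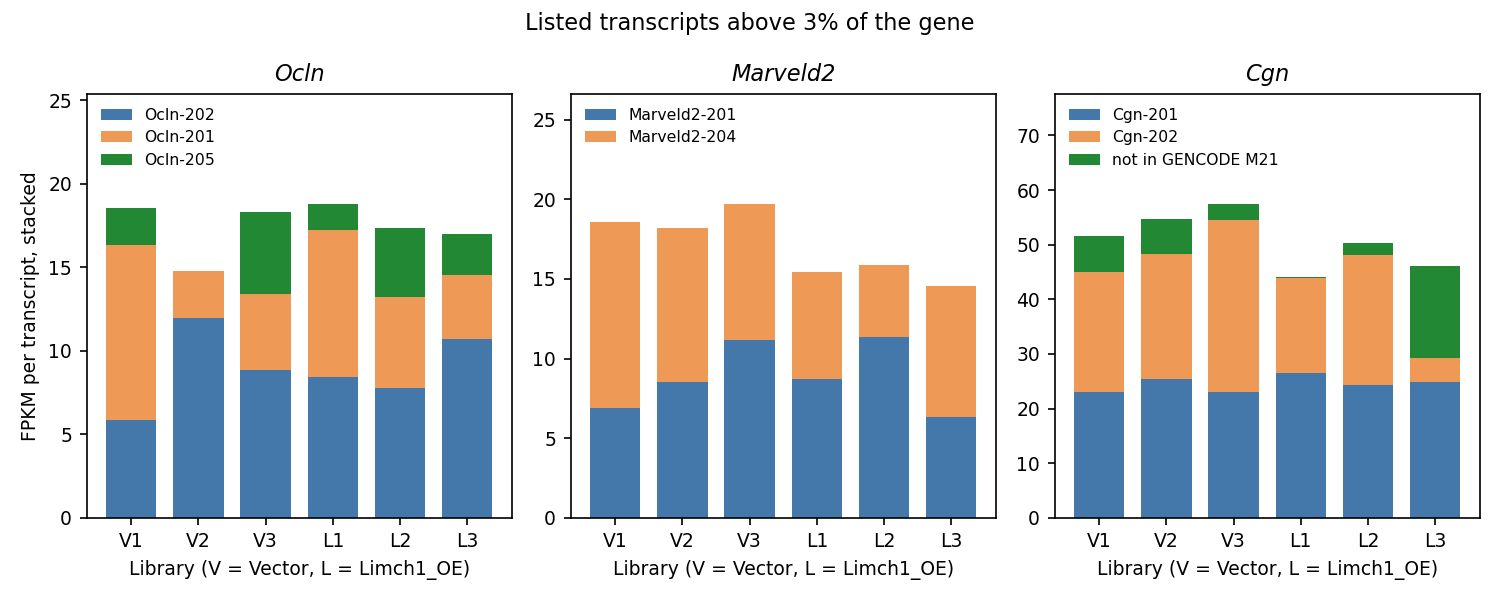
FPKM of the listed transcripts above 3% of Ocln, Marveld2 and Cgn, stacked for each library (V1 to V3, Vector; L1 to L3, Limch1_OE). Stack heights vary less than the layers within them, for instance Ocln-201 in V1 and V2 and Cgn-202 in L3.

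The order of the 10 genes by level was in part different between the groups. In Vector it ran Cldn4, F11r, Cldn3, Cgn, Tjp1, Cldn12, Cldn7, Marveld2, Ocln and Cldn1, and only Tjp1 with Cldn12 and Marveld2 with Ocln overlapped as neighbours in the order. In Limch1_OE it ran Cldn4, F11r, Cgn, Tjp1, Cldn3, Cldn12, Ocln, Marveld2, Cldn7 and Cldn1, and only Cgn with Tjp1 overlapped. Cldn3 moved from above Cgn and Tjp1 to below both, and Cldn7 from above Marveld2 and Ocln to below both.

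Several of the genes lie close together on mm10. Cldn4 (chr5:134945119-134946934, minus strand) and Cldn3 (chr5:134986214-134987472, plus strand) are 39.28 kb apart, and Ocln (chr13:100496507-100552718) and Marveld2 (chr13:100595957-100616971), both on the minus strand, are 43.24 kb apart. In both pairs 1 gene fell and the other did not pass the test: Cldn3 at -0.88 beside Cldn4 at -0.17, and Marveld2 at -0.28 beside Ocln at 0.04. The difference within these pairs was not tested. Among 74 other tested genes within 250 kb of any of the 10, 12 were lower, 10 were higher and 52 did not pass the test, near the 14.4% lower and below the 20.2% higher of all tested genes. Cldn7 (chr11:69964779-69967885, plus strand) had 22 tested neighbours within that distance, of which 2 were lower and 2 were higher, and its nearest, Elp5 at 0.337 kb, had a log2 fold change of 0.04 (adjusted p = 0.556, limma). Of 10 tested neighbours of Cldn3, 1 passed the test, in the higher direction. Cldn12 had 5, with 1 lower and 1 higher, and the only 1 of Cldn1, Il1rap, was lower (-0.31). Of 11 each, Marveld2 had 3 lower and 2 higher, and Cgn had 3 lower and 1 higher. The nearest tested neighbour of Cgn, Gm15264 at 1.953 kb, was lower (-0.71), and that of Marveld2, Rad17 at 0.193 kb, was at 0.00. The antisense gene Wbscr25, which overlaps Cldn3, was at 0.06 FPKM in Vector and 0.04 FPKM in Limch1_OE.

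The 5 genes whose pattern over the 6 libraries was most like that of Cldn7 were Rtp4, Trafd1, Ifi35, H2-Q6 and Apol9b. Likeness was the root mean square difference of log2(FPKM + 1) after centring each gene on its own mean, and was 0.0811 for Rtp4 and 0.0958 for Apol9b. With 2 groups of 3 libraries this mainly finds genes with a group difference of the same size. Their log2 fold changes ran from -1.54 (H2-Q6) to -1.77 (Apol9b).

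The remaining genes of the junction were counted by role, beside 14.4% lower and 20.2% higher of all tested genes. Of 3 tested membrane proteins outside the claudins, Marveld3, a relative of occludin and tricellulin, went from 9.82 ± 0.557 to 7.69 ± 1.03 FPKM and fell by 0.32 (adjusted p = 0.0254, limma). Lsr, which recruits tricellulin to the corners between cells, went from 46.8 ± 3.27 to 39.4 ± 4.55 FPKM and fell by 0.25 (adjusted p = 0.0495, limma), at the edge of the threshold. Cxadr, the coxsackievirus and adenovirus receptor, rose from 35.5 ± 1.06 to 46.8 ± 3.56 FPKM, a log2 fold change of 0.39 (adjusted p = 0.00190, limma). The decreases of Marveld3 and Lsr did not both hold in most alternatives: the count of 2 dropped to 0 with no filter on low values, with the most abundant transcript only, without Vector replicate 2 and without Limch1_OE replicate 3. The 4 other listed genes of this group were below 1 FPKM.

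Of 15 tested plaque and scaffold genes beyond Tjp1 and Cgn, 2 were lower (Cgnl1 at -0.23 and Cask at -0.40), 2 were higher (Amot at 0.32 and Tjap1 at 0.22) and 11 did not pass the test, with a median of 0.06. Cgnl1 encodes paracingulin, the closest relative of cingulin. Of 13 tested polarity genes, which set the apical side on which tight junctions form, only Dlg1 was called, higher at 0.37, and the median was 0.05. Of 14 tested regulators of RhoA and myosin at the junction, 2 were lower, 2 were higher and 10 did not pass the test. Their median was 0.00. The lower were Arhgef18 (-0.26) and Cdc42bpb (-0.22), and the higher were Rhoa (0.22) and Rock2 (0.27). Among those that did not pass were Rock1 (0.11), Arhgef2 (-0.01) and Myh9 (0.02). Single libraries decided some of these calls: the 2 higher plaque genes became 1 without Vector replicate 1 or replicate 3, and the 2 higher RhoA and myosin regulators became 1 without Vector replicate 1 or replicate 2. These shares lie near or under those of all tested genes given above.

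Genes for partners of claudins and occludin, and for their turnover, included 5 of 17 that were lower, 5 that were higher and 7 that did not pass the test, with a median of -0.12, beside 14.4% lower and 20.2% higher of all tested genes. With the trimmed mean of M values 7 were lower and 3 higher. The 5 higher became 2 with no filter, without Vector replicate 3 or without Limch1_OE replicate 2, and 3 without Vector replicate 2 or without Limch1_OE replicate 1. Epcam, whose protein binds and stabilises claudin-7, stood at 105.5, 109.7 and 104.3 FPKM in Vector and at 79.4, 80.6 and 74.3 FPKM in Limch1_OE, a log2 fold change of -0.44 (adjusted p = 2.44e-04, limma). It was lower in every Limch1_OE library, by less than Cldn7. Epha2, a receptor kinase that can phosphorylate claudin-4, went from 119.0 ± 3.87 to 81.8 ± 4.33 FPKM and fell by 0.54 (adjusted p = 1.29e-04, limma). St14, which encodes the protease matriptase, fell by 0.42, and the tetraspanin gene Cd9 by 0.36. The 5 that rose were Cd81, another tetraspanin gene (0.22), the small GTPase gene Rab14 (0.22), the caveolin gene Cav1 (0.27), Vapa (0.27) and the ubiquitin ligase gene Itch (0.20), all log2 fold changes.

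The neighbouring adhesion complexes were mixed. Of 11 tested adherens junction genes 1 was lower, 3 were higher and 7 did not pass the test, with a median of -0.07, beside 14.4% lower and 20.2% higher of all tested genes. With the trimmed mean of M values 2 were lower and 1 was higher. The 3 higher became 1 without Vector replicate 1, Vector replicate 3 or Limch1_OE replicate 2. Cdh1, which encodes E-cadherin, went from 290.0 ± 6.52 to 255.6 ± 6.59 FPKM and fell by 0.18 (adjusted p = 0.0143, limma), a call lost without Vector replicate 3. Ctnnb1, which encodes beta-catenin, rose from 150.8 ± 7.32 to 218.9 ± 9.80 FPKM, a log2 fold change of 0.53 (adjusted p = 1.61e-04, limma). Of 10 tested desmosome genes 2 were lower, 2 were higher and 6 did not pass the test, with a median of 0.08. The counts were not firm: leaving out single libraries gave 1 or 2 lower and 0 to 2 higher. Of the 2 higher, Dsc2, a desmosomal cadherin gene, met the minimum level for testing only through the Limch1_OE libraries, so its call is no result, and its levels were 0.85, 0.93 and 0.79 FPKM in Vector and 2.31, 1.97 and 2.03 FPKM in Limch1_OE.

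Among 13 tested genes chosen as regulators of tight junction genes, 3 were lower, 1 was higher and 9 did not pass the test. The median was -0.09, and of all tested genes 14.4% were lower and 20.2% higher. Most of the 13 encode transcription factors, but Esrp1 and Esrp2, which did not pass the test, encode splicing regulators. Klf4, an epithelial factor, went from 7.0 ± 0.411 to 4.26 ± 0.284 FPKM and fell by 0.60 (adjusted p = 5.81e-04, limma). Grhl1, a grainyhead factor, fell by 0.27 and Twist1, a factor of the epithelial to mesenchymal transition, fell by 0.42. Zeb2, a repressor that binds E-boxes, stood at 3.46, 3.32 and 3.30 FPKM in Vector and at 6.65, 4.99 and 4.66 FPKM in Limch1_OE, a log2 fold change of 0.55 (adjusted p = 0.00668, limma). The groups did not overlap, and Limch1_OE replicate 1 was the highest. With the most abundant transcript only, Zeb2 was at 0.22 and did not pass the test (adjusted p = 0.231, limma). Of the other Snail and Zeb genes chosen, Snai1 went from 9.41 ± 1.16 to 8.69 ± 0.660 FPKM. Its log2 fold change of -0.10 did not pass the test (adjusted p = 0.437, limma). Snai2 and Zeb1 averaged below 1 FPKM in both groups and were not tested. Neither Grhl2 (-0.06), Ovol2 (-0.13), Elf3 (0.11) nor Ehf (-0.04) passed the test.

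Most markers of other cell types were near 0. Among leukocyte markers, 5 of the 8 listed did not reach 1 FPKM in either group, and the pan-leukocyte gene Ptprc averaged 0 FPKM in Vector and 0.00333 FPKM in Limch1_OE. The summed level of the 8 was 43.9 to 49.5 FPKM in Vector and 45.3 to 50.9 FPKM in Limch1_OE, made up mostly of Cd68, Lcp1 and Cd14. The log2 fold change was 0.31 for Cd68, -0.45 for Lcp1 and -0.28 for Cd14, all past the threshold, and that of Cd68 lost its call without Vector replicate 3, Limch1_OE replicate 2 or Limch1_OE replicate 3. Of 5 listed fibroblast markers 4 were below 1 FPKM in both groups, with a sum of 1.33 to 1.62 FPKM in Vector and 1.79 to 2.02 FPKM in Limch1_OE. All 7 listed endothelial markers were below 1 FPKM in both groups, with a sum of 0.37 to 0.43 FPKM in Vector and 0.17 to 0.42 FPKM in Limch1_OE. The part of these markers in the differences above was not tested.

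The changes of Cldn7, Cldn1, Cldn3 and Cldn12 passed the test under all 17 alternatives. For Cldn7 the log2 fold change ranged from -1.77 to -1.52, for Cldn3 from -0.92 to -0.83, for Cldn12 from -0.36 to -0.29 and for Cldn1 from -1.62 to -1.01. Ocln and F11r passed in none of them, with ranges of -0.06 to 0.10 for Ocln and -0.12 to -0.02 for F11r.

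**Figure D5:**
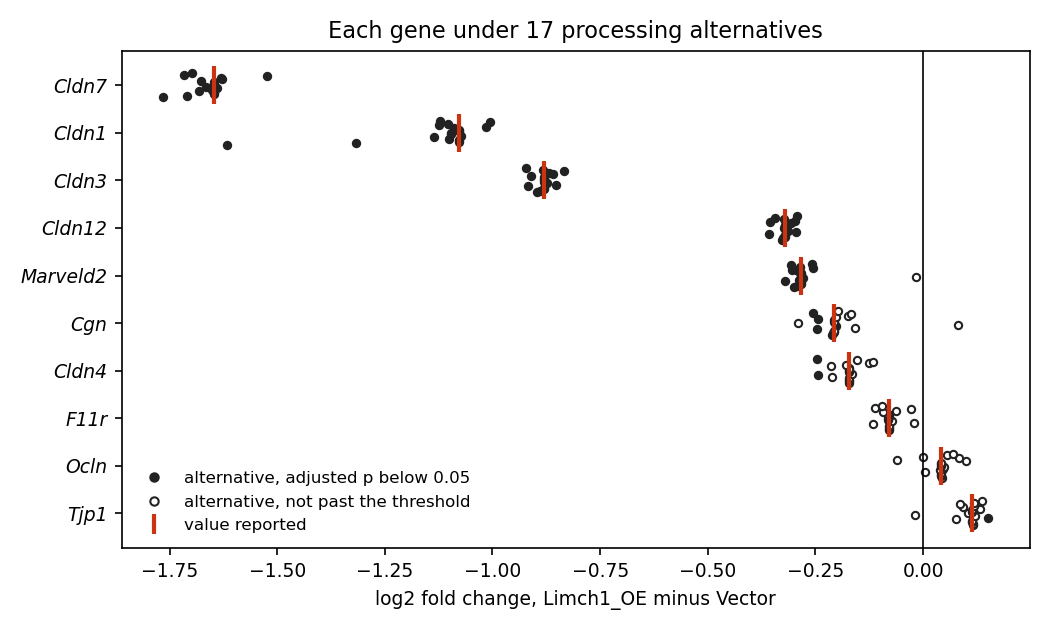
Log2 fold change of each of the 10 genes under 17 processing alternatives (points, filled where the adjusted p is below 0.05) and as reported (vertical bar). Cldn7, Cldn1, Cldn3 and Cldn12 stay left of 0 with filled points throughout, while Cgn reaches 0.08 and Marveld2 -0.02 with the most abundant transcript only.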

How the data were processed

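RNA was measured in 6 libraries, 3 per group, grouped by sample title because another label field numbers the gene and the cell line consecutively. The deposited table gives FPKM per transcript, made by the authors. Per the submitters' processing notes, build mm10 and the tools StringTie 2.2.1, STAR 2.7.10, fastp 0.23.2 and featureCounts 2.0.1 were used, in roles that are not described. As for annotation release and strand use, nothing is given in the sources used here. No counts are listed, so depth is unknown and precision is the SD over 3 libraries.

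FPKM values of the 77865 listed transcripts were summed per gene. GENCODE release M21 gave symbols and positions for 26033 of 26094 genes. Genes that reached 1 FPKM in 3 or more libraries were tested with limma 3.58.1 (R 4.3.3, eBayes with trend, two-sided) on log2(FPKM + 1), Limch1_OE minus Vector, with Benjamini-Hochberg adjustment over 11842 genes. limma was tested on simulated data. Ratios between claudins were compared by exact permutation. The promoter windows came from the RefSeq table on GRCm38.p6.

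The tight junction genes, lists and tests were chosen with earlier results of these data known. All 10 genes are named, as are genes of other lists past the threshold with an absolute log2 fold change of at least 0.5 and a mean of at least 1 FPKM, and the 5 genes most like Cldn7. A gene that met this rule is not reported here. Other genes named were chosen after their values were seen. Alternatives covered the pseudocount (0.1 and 0.5), filter, scaling, transcript choice, trend, replicate block and leaving out each library.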

Additional observations from a re-analysis of the deposited data

How the results depend on the processing

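Cldn1, Cldn3, Cldn7 and Cldn12 were lower and past the threshold under all 17 alternatives, and the count of lower genes among the 10 ranged from 4 to 7. With the most abundant transcript only, 997 of all tested genes were higher and 999 lower, the log2 fold change of Cgn turned from -0.21 to 0.0807, and that of Tjp1, which did not pass the test, from 0.11 to -0.02. With protein-coding transcripts only, 1534 genes were higher. With quantile normalization 1 of the 10 genes, Tjp1, was higher. The cause of these shifts was not tested. Leaving out each library in turn gave between 1578 genes called higher (without Limch1_OE replicate 2) and 2147 (without Limch1_OE replicate 3), with 1590 without Vector replicate 1, and between 1207 and 1552 called lower. With no filter 1701 genes were higher and 1344 lower. Correlations between the deviations of same-numbered libraries were small (-0.0017, 0.0456 and 0.0592 for replicates 1, 2 and 3). Those of replicates 2 and 3 were the highest of all pairs, while Vector replicate 1 correlated best with Limch1_OE replicate 2 (0.0271). The numbers were not taken as pairs. With the replicate block 2219 genes were higher, 1589 lower and 7 of the 10 genes lower, the added one being Cldn4 (adjusted p = 0.0332, limma). Dsc2 could not be tested with the most abundant transcript only or without any 1 Limch1_OE library, because too few libraries then reached 1 FPKM.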
